A study of Mus musculus with 3 samples.

Results

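The 6 secreted modulators of Wnt signalling described here are Wif1, Sfrp1, Sfrp2, Frzb, Dkk2 and Dkk3, which were chosen by name out of the 27998 genes measured in mouse non-cardiomyocytes (non-CMs). They were measured by droplet-based single-cell RNA sequencing (scRNA-seq) of ventricles in 3 phases, healthy (treatment Control, 0 weeks), adaptive hypertrophy (2 weeks of TAC) and heart failure (12 weeks of TAC). TAC, transverse aortic constriction, narrows the aortic arch and loads the heart with pressure. All groups were wild-type male C57BL/6J JCL mice that were 8 weeks old at surgery, the atria had been removed, and the cells were separated from cardiomyocytes and debris on a density gradient, red blood cells were lysed, and no sorting by markers is described. Each phase was 1 library, and the number of mice in a library is not given in the sources used here. Phase and library therefore cannot be told apart, there is no test between phases, and every interval below is a 95% interval for counting error only.

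Wnt proteins are secreted ligands that bind Frizzled receptors and the co-receptors Lrp5 and Lrp6, which leads to the stabilisation of beta-catenin, or that act through other receptors such as Ror2 and Ryk. Wif1 and the secreted Frizzled-related proteins Sfrp1, Sfrp2 and Frzb bind Wnt ligands outside the cell. Dickkopf proteins such as Dkk2 bind Lrp5 and Lrp6 instead, while Dkk3 is a divergent member of that family. In the heart, Wnt signalling is studied in development, in fibroblast activation and in scarring.

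The start regions of the genes are shown for the members that turned out to mark different cells (Wif1 and Dkk2) and for a pair of Wnt-binding members that were both higher at 2 weeks (Sfrp2 and Frzb). RefSeq start regions on GRCm38.p6 were matched for 4 of the 6 members, and Sfrp1 and Dkk3 are named only. Only bases upstream of the annotated gene are printed, 5′ to 3′ on the strand of the gene, except for Frzb, where a window of 30 bases within the annotated gene is given. Capitals mark the letters CTTTGA or CTTTGT (the core recognised by the TCF and LEF factors of the Wnt pathway) or TATAAA, each searched on both strands, so that TCAAAG and TTTATA are matches on the other strand.
Wif1, chr10:121033754-121033959, plus strand: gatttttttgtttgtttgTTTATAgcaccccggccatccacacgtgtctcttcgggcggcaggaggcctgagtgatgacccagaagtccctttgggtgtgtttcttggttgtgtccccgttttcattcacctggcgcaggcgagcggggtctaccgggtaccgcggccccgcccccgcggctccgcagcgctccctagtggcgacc
Sfrp2, chr3:83766071-83766320, plus strand: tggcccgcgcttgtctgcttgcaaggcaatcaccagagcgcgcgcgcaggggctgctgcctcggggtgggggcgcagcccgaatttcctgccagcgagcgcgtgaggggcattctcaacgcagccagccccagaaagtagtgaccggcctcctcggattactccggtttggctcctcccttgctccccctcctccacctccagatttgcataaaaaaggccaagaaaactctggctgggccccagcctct
Dkk2, chr3:132085042-132085291, plus strand: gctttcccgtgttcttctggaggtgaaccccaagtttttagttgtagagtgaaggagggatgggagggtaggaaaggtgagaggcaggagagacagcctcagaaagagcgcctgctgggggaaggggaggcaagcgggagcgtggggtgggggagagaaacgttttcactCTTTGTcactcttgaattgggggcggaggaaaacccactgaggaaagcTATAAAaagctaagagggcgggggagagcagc
Frzb, chr2:80447474-80447503, minus strand: tcccctgaaaacTCAAAGccttctcggaag
Dkk2 held CTTTGT 80 bases and TATAAA 32 bases before its RefSeq start. Frzb held TCAAAG 95 bases before its start, Wif1 held TTTATA 232 bases before its start and none of the TCF/LEF letters, and Sfrp2 held neither. In the same 250 bases before the start, 27.6% of 32851 mouse promoters held CTTTGA or CTTTGT and 12.4% held TATAAA. A match is a description of the letters, and no binding was measured.

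After cells with fewer than 200 genes were left out, 3892, 2231 and 792 cells remained at 0, 2 and 12 weeks, with 12287823, 4465929 and 1712728 unique molecular identifiers (UMIs, 1 per captured transcript) and a median of 2589, 1495 and 1434 UMIs per cell. The libraries also differed in RNA quality, since 5.04%, 9.32% and 17.2% of their cells had over 10% mitochondrial UMIs. In all, 9 cell barcodes occurred in more than 1 library. Levels are given as counts per 1000000 UMIs of the same group of cells (CPM) with an exact Poisson interval. The libraries count 3′ ends, so that levels were not divided by gene length.

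Cells were assigned to the class whose marker genes had the largest UMI sum, which gave 1104, 1748 and 306 endothelial cells (ECs) at 0, 2 and 12 weeks, 1247, 100 and 195 fibroblasts (FBs), 414, 69 and 40 mural cells, 41, 21 and 12 neural cells and 948, 190 and 162 blood cells. FBs had a median of 56 UMIs of the FB markers Pdgfra, Tcf21, Col1a1, Col1a2, Dcn, Lum, Mmp2 and Pcolce, and a median of 0 for the markers of each other class. The neural class had a median of 13 UMIs of its own markers (Sox10, Kcna1 and others of peripheral glia) and 2 of FB markers. Of the FBs, 28 of 1542 lay near the limits of the gate, and of the neural cells 12 of 74 did.

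Of the 6 modulators, 4 were almost confined to FBs. FBs held 27.2% of all UMIs of the 3 libraries but 98.3% of the 822 Wif1 UMIs, 94.6% of the 428 Sfrp2 UMIs, 95.4% of the 548 Frzb UMIs and 95.9% of the 1312 Dkk3 UMIs. Sfrp1 was shared between FBs, with 80.7% of its 1118 UMIs, and neural cells, with 12.3% of its UMIs in 0.763% of all UMIs. Dkk2 was the exception. Of its 60 UMIs none came from FBs, 43 came from ECs and 11 from mural cells, with 2 in blood and 4 in unassigned cells. Blood cells, which should lack these genes, gave the background of free RNA. Their level over the 3 libraries lay between 0.569 CPM for Dkk2 and 2.85 CPM for Frzb, at a median depth of 2444.5 UMIs against 2828.5 in FBs. For the 5 members found in FBs, ECs as a whole had between 0.563 CPM of Wif1 and 3.10 CPM of Dkk3. The median FB marker stood in ECs at 1.15% and in blood cells at 1.32% of its FB level, so that the values of these 5 members over the whole of these classes were not read as expression. Small EC gates had higher values, with 44.1 CPM of Dkk3 (14.3 to 103) from 5 UMIs in ECs gated by Prox1, Mmrn1 and Ccl21a, and 19.5 CPM of Sfrp1 (7.16 to 42.5) from 6 UMIs in ECs gated by Npr3 and Cytl1. With cells thinned to 1000 UMIs, 0 of 37 and 0 of 102 cells of these gates kept a UMI, and the part of free FB RNA in these values was not tested.

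**Figure D1:**
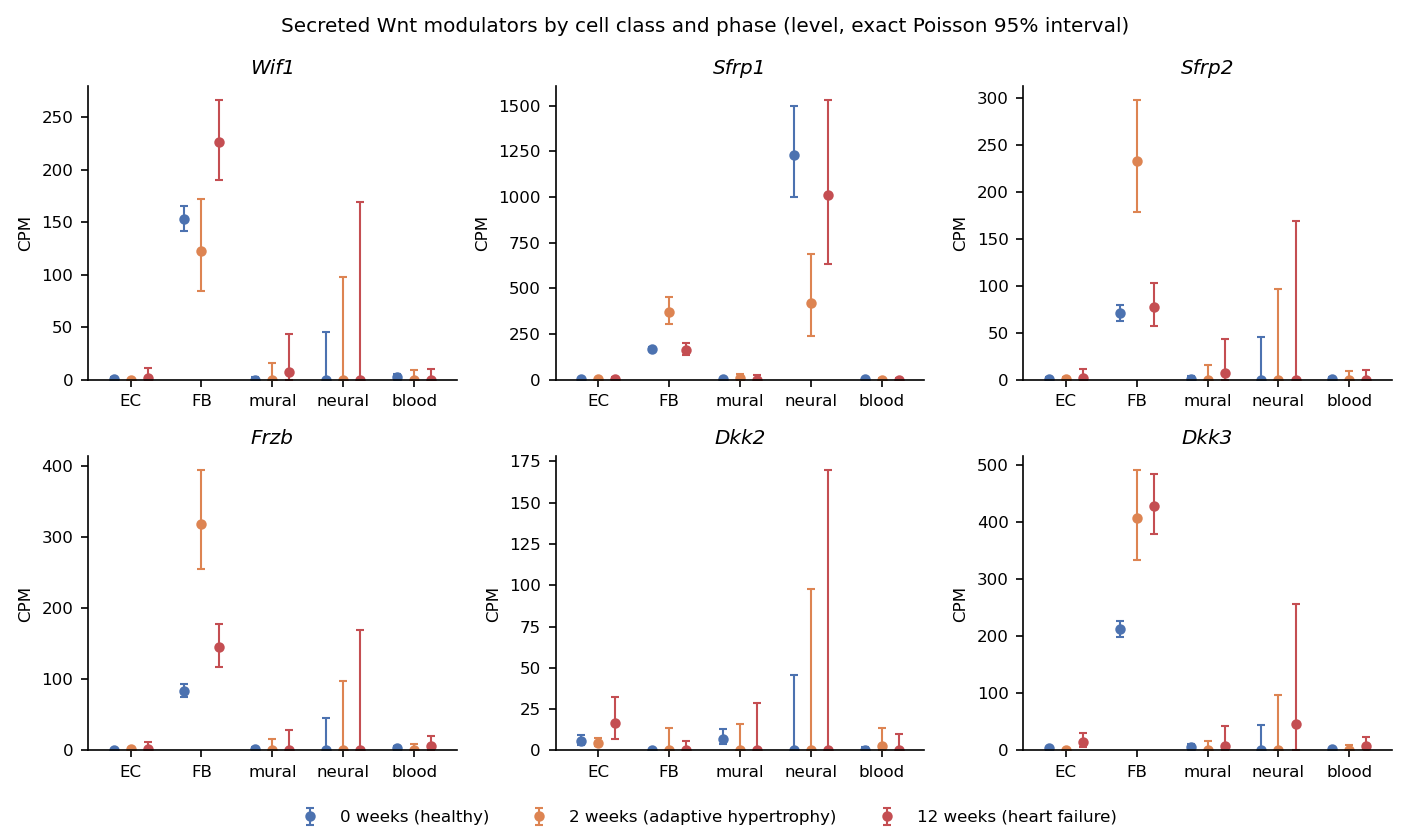
Level of each modulator (CPM, linear axis from 0) in ECs, FBs, mural, neural and blood cells at 0, 2 and 12 weeks. Points are levels of 1 library and bars are exact Poisson 95% intervals, so that long bars mark small classes: FBs stand far above all other classes for Wif1, Sfrp2, Frzb and Dkk3, neural cells stand highest for Sfrp1, and Dkk2 has no UMI in FBs.

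In FBs the modulators did not follow a common course across the phases. At 2 weeks 3 of the 5 members with at least 20 UMIs were 2-fold or more higher than in the healthy library (with 1 CPM added to each level), namely Frzb, Sfrp2 and Sfrp1, and none was lower, where 8.82% of 9982 genes were called higher and 12.3% lower. At 12 weeks only Dkk3 of these 5 was called higher and none lower, where 5.78% of 10200 genes were called higher and 6.13% lower. The median log2 ratio of all genes was -0.01 at 2 weeks and 0.01 at 12 weeks. The members nearest to the limit of 2 were Dkk3 at 12 weeks, with a ratio of 2.02, and Dkk3 at 2 weeks, with a ratio of 1.91. The 2-week values rest on 100 FBs, whose median mitochondrial share was 7.62%, against 2.62% in the healthy and 4.72% in the 12-week library. Marker sums of other cells in FBs at 0, 2 and 12 weeks were 252, 348 and 264 CPM for ECs, 209, 307 and 243 CPM for mural cells, 42.9, 122 and 57.2 CPM for 6 epicardial genes and 113, 25.9 and 130 CPM for blood cells, while the FB markers themselves stood at 21823, 21629 and 22654 CPM. Their part in these ratios was not tested.

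To follow the members within FBs, FBs were gated by pairs of genes that mark known FB states. Postn and Thbs4 are matrix genes of activated FBs, Comp and Chad are matrix genes of cartilage and tendon, and Cd248 and Pi16 mark FBs of the adventitia and interstitium. Inmt is a methyltransferase and Gdf10 a ligand of the TGF-beta family. The gates held 107, 35 and 23 FBs (Postn+Thbs4), 43, 11 and 15 (Comp+Chad), 24, 1 and 12 (Inmt+Gdf10) and 740, 20 and 68 (Cd248+Pi16) at 0, 2 and 12 weeks, and 333, 33 and 77 FBs stayed ungated. None of the 6 members was used for the gates. Many gated cells lay near the limits, namely 63 of 165 (Postn+Thbs4), 28 of 69 (Comp+Chad), 25 of 37 (Inmt+Gdf10) and 236 of 828 (Cd248+Pi16). In the healthy library, the Comp+Chad gate had 4 members called higher than in all other FBs (Wif1, Dkk3, Sfrp2 and Frzb) and 1 called lower (Sfrp1), where 8.79% of 9812 genes were called higher and 23.6% lower. The Postn+Thbs4 gate had the same 4 members higher and none lower (all genes 4.18% higher and 7.92% lower), which was the case in the healthy library, while after TAC Sfrp2 (0.501, 0.261 to 0.911, at 2 weeks and 0.514, 0.159 to 1.29, at 12 weeks) and Frzb (0.904 and 0.893) were not above other FBs there. The Cd248+Pi16 gate had these 4 lower and none higher (1.39% higher and 3.22% lower). The Inmt+Gdf10 gate had Sfrp1 higher and Wif1, Dkk3 and Frzb lower (9.48% higher and 33.3% lower). The Frzb call there rests on 3 UMIs, and the interval of its ratio included 1 (0.463, 0.0949 to 1.36). These calls by gate are counts past a fixed fold within 1 library and not a test.

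**Figure D2:**
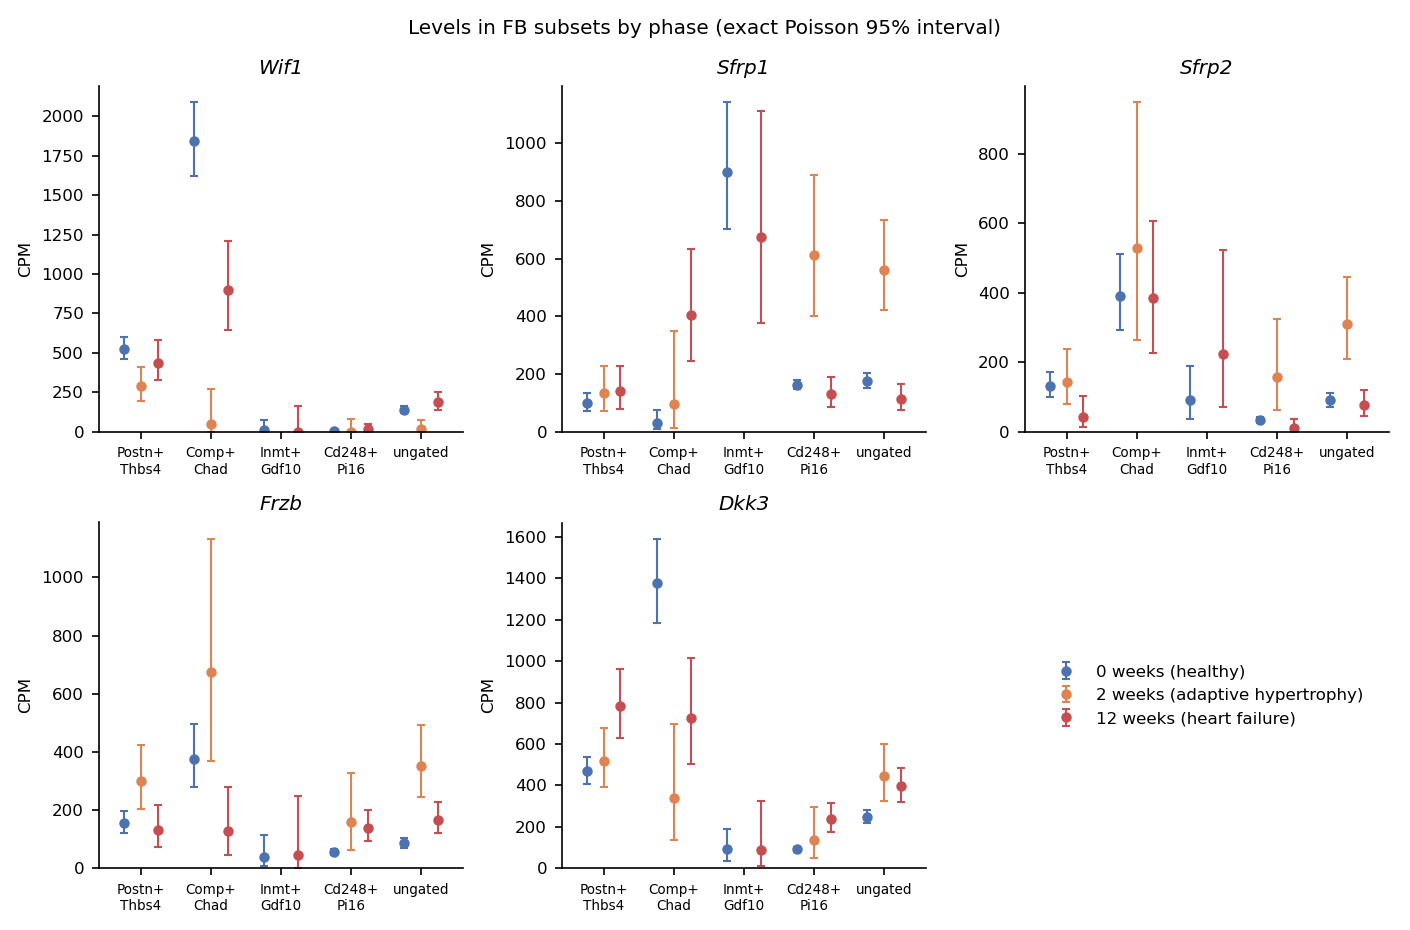
Level (CPM, linear axis from 0) of the 5 modulators found in FBs, by FB gate and phase, with exact Poisson 95% intervals. The single Inmt+Gdf10 cell at 2 weeks is not drawn; healthy Wif1, at 1842 CPM, and healthy Dkk3, at 1376 CPM, stand highest in the Comp+Chad gate, and healthy Sfrp1, at 901 CPM, in the Inmt+Gdf10 gate.

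Wif1 (ENSMUSG00000020218, chr10:121033960-121100650 on GRCm38, plus strand), Wnt inhibitory factor 1, was held by few FBs at high counts. Its FB level was 153 (142 to 166), 122 (84.1 to 172) and 226 (190 to 266) CPM at 0, 2 and 12 weeks. In the healthy library 70 of 1247 FBs had a Wif1 UMI, 20 of them had 10 or more, and the 10 richest cells held 52.9% of its UMIs. At 2 weeks 5 of 100 FBs held all 33 UMIs, and at 12 weeks 23 of 195 FBs held 142. The ratio to the healthy library was 0.796 (0.543 to 1.13) for the 2-week and 1.47 (1.22 to 1.77) for the 12-week FBs, and the former rests on 1 cell, since it was 0.430 (0.244 to 0.705) without the richest cell of each library. The share of FBs with a Wif1 UMI was 5.61%, 5.00% and 11.8%, and 4.33%, 5.63% and 8.54% with each cell thinned to 1000 UMIs, which left 1247, 71 and 164 FBs. In blood cells the share was 0.615%.

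Within FBs, Wif1 was highest in the Comp+Chad and Postn+Thbs4 gates and near the background in the Cd248+Pi16 gate. In the Comp+Chad gate it stood at 1842, 48.2 and 897 CPM at 0, 2 and 12 weeks, and in the Postn+Thbs4 gate at 527, 289 and 439 CPM. In the Cd248+Pi16 gate it stood at 3.27, 0 and 19.9 CPM, where the last value is 4 UMIs of 1 cell, and ungated FBs had 141, 20.8 and 188 CPM. The healthy Comp+Chad cells were thus 19.0-fold (16.1 to 22.3) above all other FBs, and the Postn+Thbs4 cells 4.86-fold (4.12 to 5.73). The Postn+Thbs4 gate stayed above other FBs at 2 weeks (16.0-fold, 4.99 to 82.1) and at 12 weeks (2.46-fold, 1.71 to 3.51). The 2-week value rests on 30 UMIs in 3 cells, 17 of them in 1 cell, against 3 UMIs in other FBs. The 12-week value rests on 50 UMIs in 8 of 23 cells, 26 of them in 1 cell. The Comp+Chad gate stayed above other FBs at 12 weeks (5.22-fold, 3.55 to 7.55), but at 2 weeks it held 1 Wif1 UMI in 11 cells (ratio 0.376, 0.00922 to 2.25). Its 12-week value rests on 42 UMIs in 3 of 15 cells, with up to 19 in 1 cell. The share of its cells with a UMI was 20.0% (4.33 to 48.1) at 12 weeks.

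The Chad content of the Comp+Chad gate differed between the phases. Chad, a leucine-rich cartilage matrix protein, stood at 1391, 145 and 21.4 CPM in the gate at 0, 2 and 12 weeks, with 20, 1 and 1 Chad-positive cells, whereas Comp stood at 4105, 6698 and 2733 CPM. In the healthy library Wif1 was at 3571 CPM in the 20 gated cells with a Chad UMI and at 768 CPM in the 23 without, or 36.8-fold and 7.90-fold above all other FBs. The 14 cells without Chad at 12 weeks had 964 CPM of Wif1 from 42 UMIs in 3 cells, against 63 UMIs in 10 of the 23 healthy cells without Chad, and the 10 such cells at 2 weeks had none. This split was chosen after the values were seen.

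Sfrp1 (ENSMUSG00000031548, chr8:23411502-23449632, plus strand) was the most widely detected of the Wnt-binding members in FBs. Its level was 169 (157 to 182), 374 (305 to 454) and 165 (135 to 200) CPM at 0, 2 and 12 weeks, which gave a ratio of 2.21 (1.78 to 2.73) at 2 weeks and 0.979 (0.789 to 1.20) at 12 weeks. Between 12 and 2 weeks the ratio was 0.442 (0.333 to 0.588). The intervals of the healthy and 12-week levels overlapped and both lay below that of the 2-week level. In the healthy library 34.2% of FBs had a UMI, and the 10 richest cells held 9.90% of its UMIs, so that its pattern was spread out where that of Wif1 was concentrated. With thinned cells the shares were 15.4%, 29.6% and 17.1% at 0, 2 and 12 weeks.

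Among the FB gates of the healthy library Sfrp1 had nearly the inverse order of Wif1, which did not hold at 12 weeks. The Inmt+Gdf10 gate stood at 901 CPM in 24 healthy cells, 765 CPM in 1 cell at 2 weeks and 674 CPM in 12 cells at 12 weeks, and it was 5.81-fold (4.47 to 7.46) above other healthy FBs and 4.59-fold (2.47 to 7.99) above other FBs at 12 weeks. The Comp+Chad gate stood at 30.1 CPM (4 UMIs), 96.4 CPM (2 UMIs) and 406 CPM (19 UMIs), so that it lay below other FBs in the healthy library (ratio 0.173, 0.0471 to 0.446) and above them at 12 weeks (2.78, 1.59 to 4.61). The Postn+Thbs4 gate held 99.0, 135 and 141 CPM. The higher FB level at 2 weeks was found in the Cd248+Pi16 gate (163, 611 and 129 CPM, 2-week ratio 3.74, 2.43 to 5.52) and in ungated FBs (176, 561 and 114 CPM, ratio 3.19, 2.31 to 4.35), from 20 and 33 FBs at 2 weeks. The 33 UMIs of the 6 epicardial genes in 2-week FBs all lay in ungated FBs, since the gates held none. Their part in the 2-week ratios of ungated FBs, for any member, was not tested.

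The second source of Sfrp1 was the neural class. Its level there was 1231 (1001 to 1497), 423 (242 to 686) and 1011 (633 to 1530) CPM at 0, 2 and 12 weeks, from 29 of 41, 12 of 21 and 9 of 12 cells with a UMI, where 0.615% of blood cells had one. Relative to the FBs of the same library this was 7.29-fold (5.85 to 9.00) at 0 weeks, 1.13-fold (0.622 to 1.93) at 2 weeks and 6.11-fold (3.67 to 9.75) at 12 weeks. The neural cells thus exceeded the FBs in the healthy and 12-week libraries, whereas at 2 weeks the interval of the ratio included 1. Neural cells held 1046, 1558 and 965 CPM of the FB markers, against 21823, 21629 and 22654 CPM in FBs, and the 26 neural cells with at most 1 FB marker UMI had 1247 CPM of Sfrp1 against 873 CPM in the other 48, over the 3 libraries together. By library the values were 1622 against 1078 CPM at 0 weeks, 603 against 372 CPM at 2 weeks and 889 against 1097 CPM at 12 weeks, with overlapping intervals in each. The remaining Wnt-binding members had no UMI in the 74 neural cells, which allows up to 21.3 CPM.

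The lower neural Sfrp1 level at 2 weeks (ratio to healthy 0.343, 0.189 to 0.585) came with lower levels of some other genes of this class. Kcna1, a potassium channel gene, stood at 2178, 740 and 2021 CPM at 0, 2 and 12 weeks, and Gfra3, a receptor for neurotrophic factors, at 1255, 713 and 1470 CPM. Sox10, a transcription factor of glia, stood at 394, 370 and 322 CPM, and the cadherin gene Cdh19 at 431, 475 and 643 CPM. Kcna1 and Gfra3 were thus lowest at 2 weeks together with Sfrp1, whereas Sox10 and Cdh19 were not, and their part in the Sfrp1 ratio was not tested.

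Sfrp2 (ENSMUSG00000027996, chr3:83766321-83774316, plus strand) binds Wnt ligands and is also known as a secreted matrix-associated protein of FBs. Its FB level was 71.0 (63.1 to 79.6), 233 (179 to 298) and 77.9 (57.6 to 103) CPM at 0, 2 and 12 weeks. The ratio to the healthy library was 3.28 (2.46 to 4.32) for the 2-week and 1.10 (0.794 to 1.49) for the 12-week FBs. The course had the shape of that of Sfrp1, with only the 2-week interval standing apart. The 12-week ratio depended on how cells were weighted, since it was 2.00 when each cell counted equally. Sfrp2 UMIs were found in 9.06%, 18.0% and 10.3% of FBs, or 4.73%, 11.3% and 4.88% after thinning.

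Across the gates Sfrp2 was highest in Comp+Chad cells in every library. Its level there was 391, 530 and 384 CPM at 0, 2 and 12 weeks, or 6.48-fold (4.70 to 8.77), 2.54-fold (1.20 to 4.93) and 7.22-fold (3.80 to 13.3) above other FBs. The level in this gate was thus above that of other FBs in all 3 libraries. The 2-week value rests on 11 UMIs in 3 of 11 cells, 7 of them in 1 cell. After thinning, 0 of 6 cells of the 2-week gate kept a UMI, so that no contrast with Wif1 is drawn there. In the healthy gate Sfrp2 was at 628 CPM in cells with a Chad UMI and 244 CPM in those without. The Cd248+Pi16 gate held 33.6, 158 and 9.96 CPM, with a 2-week ratio of 4.72 (1.84 to 10.2) from 7 UMIs, and ungated FBs held 90.3, 312 and 77.5 CPM (ratio 3.45, 2.21 to 5.26). The Postn+Thbs4 gate held 133, 145 and 43.9 CPM, where the last is 5 UMIs.

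Frzb (ENSMUSG00000027004, chr2:80411970-80447625, minus strand), also named Sfrp3, was first known as a Wnt-binding protein of cartilage. Its 2-week ratio in FBs was 3.80 (2.96 to 4.82), which overlapped that of Sfrp2, and it remained above the healthy level at 12 weeks, with 1.73 (1.35 to 2.18). The levels were 83.8 (75.2 to 93.2), 318 (255 to 393) and 145 (117 to 178) CPM at 0, 2 and 12 weeks, with no overlap between the 3 intervals. The share of FBs with a UMI was 18.4%, 36.0% and 28.7%, and 9.30%, 23.9% and 14.6% after thinning. In the gates, Frzb stood at 376, 675 and 128 CPM in Comp+Chad cells, at 155, 299 and 132 CPM in Postn+Thbs4 cells, at 55.7, 158 and 139 CPM in Cd248+Pi16 cells and at 85.4, 353 and 167 CPM in ungated FBs. The 2-week ratio was above 1 beyond its interval in 3 of these 4 (Postn+Thbs4 1.92, 1.22 to 2.98; Cd248+Pi16 2.84, 1.12 to 6.02; ungated 4.14, 2.70 to 6.21). At 12 weeks it was 2.50 (1.60 to 3.78) in Cd248+Pi16 cells but 0.341 (0.119 to 0.795) in Comp+Chad cells, where 6 UMIs were left.

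Dkk3 (ENSMUSG00000030772, chr7:112116017-112159057, minus strand) was higher in FBs in both phases after TAC. Its level was 213 (199 to 227), 407 (335 to 491) and 429 (380 to 484) CPM at 0, 2 and 12 weeks. The ratios to the healthy library were 1.91 (1.56 to 2.34) and 2.02 (1.75 to 2.32), and that of 12 to 2 weeks was 1.05 (0.842 to 1.33), so that these 2 phases were not told apart. Dkk3 UMIs were found in 26.5%, 45.0% and 34.9% of FBs, or in 12.8%, 22.5% and 27.4% after thinning. In ECs it was at 14.5 CPM (7 UMIs) at 12 weeks against 3.99 CPM in the healthy library, a ratio of 3.63 (1.23 to 9.79) that was past 2-fold, as were 8.02% of 9374 EC genes upward. Blood cells of the same 12-week library had 8.27 CPM (3 UMIs), and the ratio of ECs to blood cells was 1.75, with an interval that included 1 and an upper bound of 10.5. A level in 12-week ECs above that of free RNA was thus not detectable at this depth.

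By gate, Dkk3 followed Wif1 in the healthy library. It stood at 1376 CPM in Comp+Chad cells (7.91-fold above other FBs, 6.68 to 9.32), 468 CPM in Postn+Thbs4 cells (2.57-fold, 2.19 to 3.01) and 92.1 CPM in Cd248+Pi16 cells (0.238, 0.203 to 0.277). Unlike Wif1, it differed little with Chad within the healthy Comp+Chad gate, at 1256 CPM with and 1450 CPM without a Chad UMI. Over all healthy FBs, Dkk3 stood at 1080 CPM in cells with and 199 CPM in cells without a Chad UMI. At 2 and 12 weeks it stood at 337 and 726 CPM in Comp+Chad cells, at 521 and 782 CPM in Postn+Thbs4 cells, at 136 and 239 CPM in Cd248+Pi16 cells and at 447 and 396 CPM in ungated FBs, which had 248 CPM in the healthy library. The Comp+Chad gate was therefore lower than in the healthy library (0.245, 0.0972 to 0.515, and 0.528, 0.355 to 0.764) while Cd248+Pi16 cells at 12 weeks were higher (2.60, 1.86 to 3.56). Postn+Thbs4 cells were 2.22-fold (1.71 to 2.88) above other FBs at 12 weeks.

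Wif1 and Dkk3 were often found in the same FB. In the healthy library 87.1% of the 70 FBs with a Wif1 UMI also had a Dkk3 UMI, against 22.9% of the others, at median depths of 3213.5 and 2960 UMIs, and their Dkk3 level was 1153 against 153 CPM. At 12 weeks the shares were 91.3% of 23 cells against 27.3%, with 1383 against 272 CPM of Dkk3. Frzb was found in 45.7% of the healthy Wif1-positive FBs against 16.8% of the others. Sfrp1 was found in 30.0% of the healthy FBs with Wif1 and 34.4% of those without, but at 12 weeks in 52.2% of the former and 29.7% of the latter. The FBs with Wif1 had 40.4 CPM of Tcf21, a transcription factor of resident FBs, against 234 CPM in the others, 599 against 2652 CPM of Pi16, and 24234 against 13555 CPM of Dcn, a small proteoglycan of the matrix. The FB receptor gene Pdgfra was lower in them, at 125 against 231 CPM, so that the FB markers did not move together. At 12 weeks they again had less Pi16 (135 against 2524 CPM) and Tcf21 (157 against 346 CPM).

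The gates took different shares of FBs in each phase, and the levels were therefore also weighted to a common mix. The Cd248+Pi16 gate held 59.3%, 20.0% and 34.9% of FBs at 0, 2 and 12 weeks, and the Postn+Thbs4 gate 8.58%, 35.0% and 11.8%. With the gates held at their share of healthy FB UMIs, the 2-week ratio was 3.16 (2.39 to 4.17) for Sfrp1, 2.88 (1.95 to 4.24) for Sfrp2 and 2.81 (1.99 to 3.97) for Frzb, so that these 3 were higher than in the healthy library at these weights. Most of the weight, 59.2%, fell on the Cd248+Pi16 gate, which held 20 cells at 2 weeks. These had 27 UMIs of Sfrp1, 7 of Sfrp2 and 7 of Frzb. The Inmt+Gdf10 gate held 1 cell at 2 weeks. The gates were set on genes whose own level differed between phases. Postn stood at 754 CPM in healthy FBs without Wif1 and at 4417 CPM in those of the 2-week library, so that a shift of cells between gates and a change of the gate genes within cells cannot be told apart. For Dkk3 it was 1.22 (0.906 to 1.63), where the change in the mix alone would give 1.84, and with gates set on thinned counts the Dkk3 ratio at the healthy mix was 1.73 (1.36 to 2.21). For Wif1 it was 0.247 (0.171 to 0.357), where the mix alone would give 2.57. The Comp+Chad gate held 11 cells in that phase, and the Wif1 value was 0.483 with gates of at least 4 UMIs and 0.786 (0.528 to 1.17) with gates set on thinned counts.

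At 12 weeks and the healthy mix, Frzb stood at 1.71 (1.32 to 2.22) and Dkk3 at 1.64 (1.41 to 1.92), where the mix alone would give 1.30 and 1.49. These weighted levels stayed above the healthy level, although not every gate did so, since the Comp+Chad gate was lower for both. Wif1 stood at 0.879 (0.725 to 1.07), where the mix alone would give 1.88, and Sfrp1 at 0.864 (0.679 to 1.10). Sfrp2 stood at 0.655 (0.472 to 0.910), but at 1.15 when each cell counted equally, so that its direction was not settled.

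**Figure D3:**
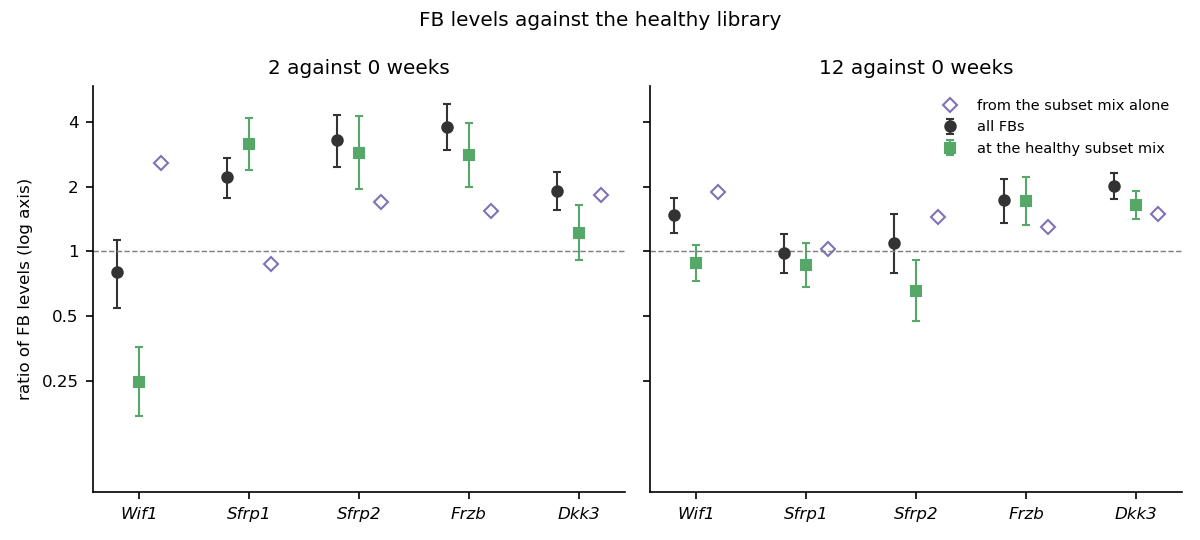
Ratio of FB levels at 2 weeks (left) and 12 weeks (right) to the healthy library, on a log axis, for all FBs (circles), at the healthy mix of gates (squares) and from the change of the mix alone (diamonds), with 95% intervals for counting error. At 2 weeks Wif1 goes from 0.796 in all FBs to 0.247 at the healthy mix, while Sfrp1, Sfrp2 and Frzb stay above 2 in both.

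Dkk2 (ENSMUSG00000028031, chr3:132085292-132180304, plus strand), a Dickkopf protein that binds Lrp5 and Lrp6, had no UMI in 1542 FBs. This allows a share of up to 0.195% of FBs with a UMI and a level of up to 0.597 CPM. The Dkk2 level in ECs was 5.83 (3.51 to 9.11), 4.76 (2.72 to 7.73) and 16.5 (7.14 to 32.6) CPM at 0, 2 and 12 weeks, from 19, 16 and 8 UMIs. ECs over the 3 libraries had 6.05 CPM against 0.569 CPM in blood cells, which is 10.6-fold (2.77 to 90.7). The ratio in ECs to the healthy library was 0.816 (0.393 to 1.68) for the 2-week and 2.84 (1.07 to 6.79) for the 12-week cells. The latter was past 2-fold upward, where 8.02% of 9374 genes in ECs were called higher and 7.62% lower, and it rests on 27 UMIs. At 2 weeks 3.09% of 10384 EC genes were called higher and 5.04% lower, and Dkk2 was in neither.

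The Dkk2 UMIs were not spread evenly over ECs. ECs with at least 2 UMIs of Npr3 and Cytl1, genes of the endocardium, had 68.3 CPM (42.3 to 104), from 21 UMIs in 16 of 107 cells. ECs with Gja4, Gja5 and Sema3g, genes of arterial ECs, had 26.3 CPM (13.6 to 45.9) in 180 cells, where 6 of the 12 UMIs came from 1 cell, and ECs with Prox1, Mmrn1 and Ccl21a, genes of lymphatic ECs, had 35.3 CPM (9.62 to 90.4) from 4 UMIs in 44 cells. The other 2827 ECs had 0.964 CPM (0.354 to 2.10), close to the blood cells. The Npr3+Cytl1 cells were 70.9-fold (27.7 to 215) above these other ECs, and by phase they had 45.5, 137 and 95.8 CPM from 9, 5 and 7 UMIs, with overlapping intervals. They made up 63 of 1104, 16 of 1748 and 28 of 306 ECs at 0, 2 and 12 weeks. The gate of these cells was set on Npr3 and Cytl1. Those genes stood at 400 and 3407 CPM in it and at 1.61 and 15.3 CPM in the other ECs. The genes of the arterial gate were also higher in it. Gja4, Gja5 and Sema3g stood at 192, 133 and 205 CPM there, against 12.05, 3.37 and 27.1 CPM in the other ECs. In the arterial gate they stood at 473, 206 and 954 CPM. Whether the Npr3+Cytl1 cells were endocardial alone was not tested. Among mural cells, those on the smooth muscle side (Myh11, Acta2 and Tagln) had 11.4 CPM of Dkk2 (5.45 to 20.9) from 10 UMIs in 5 healthy cells, and those on the pericyte side (Rgs5, Kcnj8, Abcc9 and Vtn) had no UMI in 113 cells, which allows up to 8.86 CPM, so that the sides were not told apart at this depth.

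**Figure D4:**
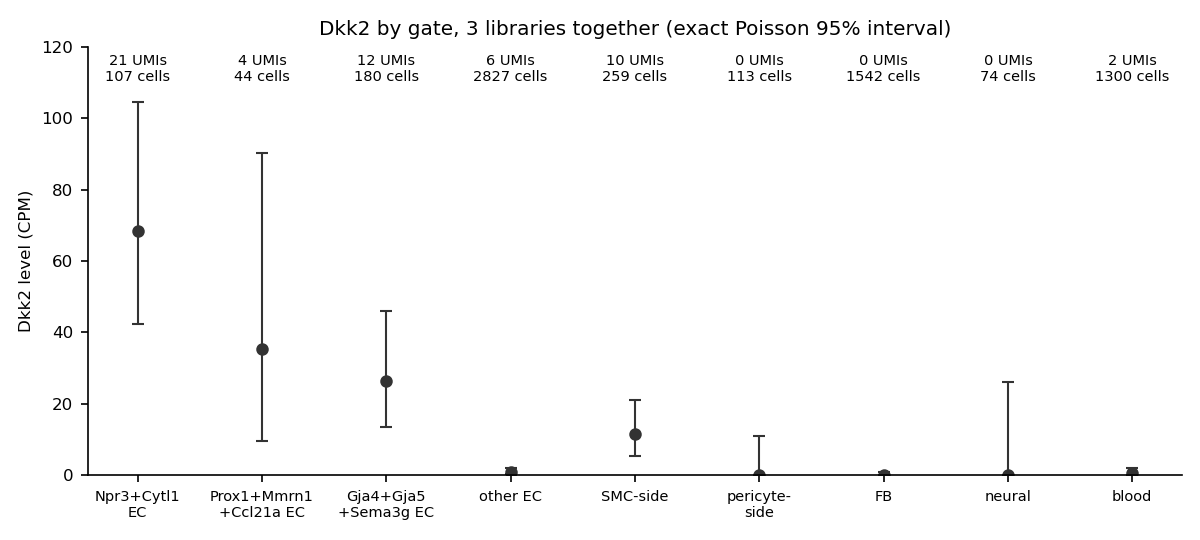
Dkk2 level (CPM, linear axis from 0) by gate over the 3 libraries together, with exact Poisson 95% intervals and the number of Dkk2 UMIs and cells above each point. The Npr3+Cytl1 ECs stand highest, at 68.3 CPM, the other 2827 ECs are at 0.964 CPM, and FBs, neural cells and pericyte-side mural cells have no UMI.

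The members sat among a wider set of 78 Wnt pathway genes. Over the 3 libraries, the best detected ligand, receptor, other modulator and intracellular gene differed between classes. The best detected secretion gene (Wls) and target (Ccnd1) were the same in the classes given. Among ligands, FBs had most of Wnt5a (27.9 CPM), which signals mainly without beta-catenin, ECs and blood cells of Wnt4 (10.1 and 13.7 CPM), mural cells of Wnt5b (53.1 CPM) and neural cells of Wnt6 (156 CPM from 22 UMIs). FBs thus held transcripts of this ligand beside those of 5 of the 6 modulators. The Wnt carrier Wls, needed for the release of ligands, stood at 157 CPM in FBs, 43.4 in ECs, 67.4 in mural and 62.6 in blood cells. Among receptors, Fzd4 led in ECs (101 CPM) and mural cells (78.5 CPM), Ryk in FBs (79.2 CPM) and Lrp6 in blood cells (42.7 CPM). Of the other modulators, Kremen1, a partner of Dickkopf proteins, led in FBs (27.1 CPM) and ECs (9.15 CPM), Trabd2b, a Wnt-cleaving protease, in mural cells (26.5 CPM), and Sostdc1, a secreted antagonist, in neural cells (390 CPM). Among intracellular genes Ctnnb1, beta-catenin, led in ECs (410 CPM) and the kinase Csnk1a1 in FBs (248 CPM), mural (306 CPM), neural (298 CPM) and blood cells (145 CPM). Ccnd1, a cyclin that Wnt signalling can induce, led the targets in each class, with 355 CPM in ECs, 326 in neural cells, 233 in mural cells, 125 in FBs and 106 in blood cells.

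**Figure D5:**
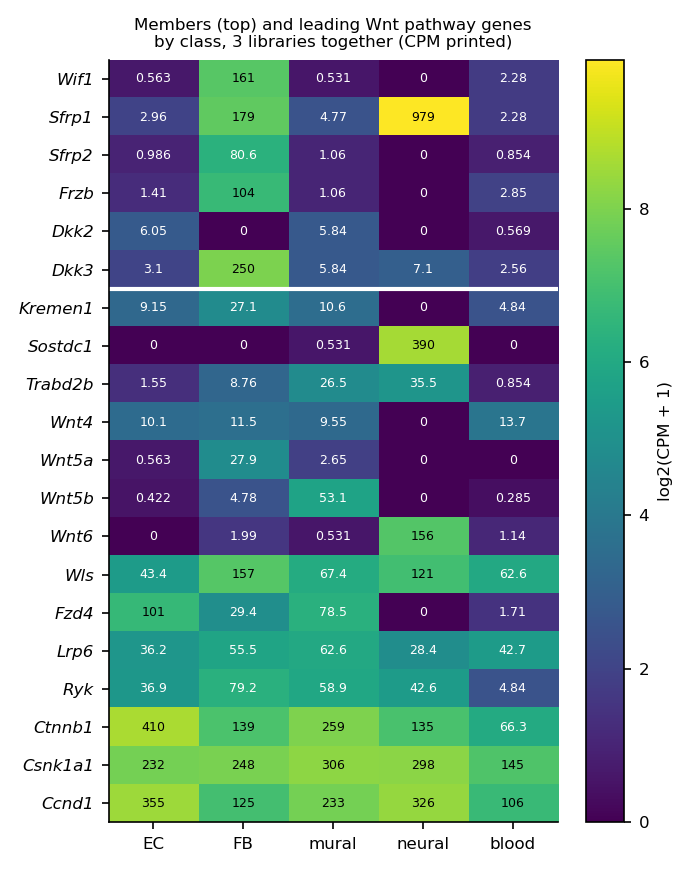
Levels of the 6 modulators (above the white line) and of the leading pathway genes of each role (below it) in 5 classes over the 3 libraries, as a colour for log2(CPM + 1) with the CPM printed in each cell. Wif1, Sfrp2, Frzb and Dkk3 are bright in FBs alone, Sfrp1 also in neural cells (979 CPM), and Dkk2 is at most 6.05 CPM in any class.

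Between phases, FBs had 37 of the 78 pathway genes with at least 20 UMIs at 2 weeks against healthy, of which 7 were called higher and 3 lower, where 8.82% of all genes were called higher and 12.3% lower, with a median log2 ratio of 0.26 against -0.01 over all genes. The 3 highest were Dvl1, a transducer of Frizzled signals (4.97, 2.51 to 9.27), Wisp1, a matricellular target (3.82, 1.12 to 10.5), and Trabd2b (3.06, 1.04 to 7.46). The 3 lowest were Rspo1, an agonist that stabilises Frizzled receptors (0 UMIs against 22), Wnt5b (0 against 21) and Fzd8 (1 UMI against 36, ratio 0.424, 0.0105 to 2.52), each with an interval that included 1. At 12 weeks, 6 of 39 were called higher and 1 lower, where 5.78% of all genes were called higher and 6.13% lower, with a median log2 ratio of 0.19 against 0.01. The 3 highest were Znrf3, a ligase that removes Frizzled receptors (3.06, 1.06 to 7.98), Rspo3, an agonist (3.02, 1.76 to 5.04), and Wnt11, a ligand (2.87, 0.999 to 7.38), and the 3 lowest were Ror1, a Wnt5a receptor (2 UMIs, 0.410, 0.0476 to 1.61), the receptor Fzd5 (0.635, 0.124 to 2.04) and Tcf7l1, a transcription factor of the pathway (0.684, 0.373 to 1.17), of which only Ror1 was past 2-fold. These counts rest on low values, since 3 genes at 2 weeks and 1 at 12 weeks were called higher with 10 CPM added in place of 1.

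The pathway genes were also counted across the FB gates of the healthy library, and those named for a gate were chosen after their values were seen. The Comp+Chad gate had 8 of 37 pathway genes higher than other FBs and 7 lower (all genes 8.79% and 23.6%), with Wnt5a at a ratio of 5.61 (3.13 to 9.48) and Nkd1, a feedback inhibitor induced by Wnt signals, at 9.14 (3.31 to 22.0). The Postn+Thbs4 gate had 5 higher and 4 lower (all genes 4.18% and 7.92%), with Rspo3 at 6.51 (3.55 to 11.8) and Axin2, a negative regulator induced by the pathway, at 2.76 (1.14 to 6.05). The Cd248+Pi16 gate, where Wif1, Sfrp2, Frzb and Dkk3 were low, had none higher and 7 lower (all genes 1.39% and 3.22%), among them Rspo3 (0.0766, 0.0237 to 0.192) and Nkd1 (0.106, 0.0269 to 0.306). The Inmt+Gdf10 gate, where Sfrp1 was high, had 8 higher and 11 lower (all genes 9.48% and 33.3%, so that the number lower was near that of all genes), with Wisp1 at 13.2 (3.22 to 41.0) from 4 UMIs and no Wnt5a UMI against 108 in other FBs. The median log2 ratio of the pathway genes was 0.42 in the Comp+Chad gate (all genes -0.19), 0.20 in the Postn+Thbs4 gate (0.01), -0.18 in the Cd248+Pi16 gate (-0.01) and 0.13 in the Inmt+Gdf10 gate (-0.28). These counts too rest on low values. With 10 CPM added, 4 genes were called higher and 1 lower in the Comp+Chad gate, 2 and 0 in the Postn+Thbs4 gate, 0 and 3 in the Cd248+Pi16 gate and 7 and 5 in the Inmt+Gdf10 gate.

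Over 22 groups of at least 20 cells (FB gates, ECs, mural sides, neural and blood cells of each library), 11609 genes were compared with each member by Pearson's r of log2(CPM + 10). The groups of 1 library share its depth and free RNA, and these values describe likeness only. Frzb and Dkk3 were each among the 3 genes most like the other (r = 0.97), and both were close to Cilp, a cartilage and FB matrix gene (r = 0.98 and 0.97). Tmem45a was the third gene most like Frzb (r = 0.97), and Foxp2, a transcription factor, the first for Dkk3 (r = 0.97). Wif1 was most like the ligand Wnt5a (r = 0.91), the gate gene Thbs4 (r = 0.91) and 5033428I22Rik (r = 0.91). The likeness to Thbs4 over groups was not seen in the Thbs4 level cell by cell. Healthy FBs with a Wif1 UMI had 125 CPM of Thbs4 against 121 CPM in the others, and 8.57% against 5.52% had a Thbs4 UMI. The 5 and 23 FBs with Wif1 at 2 and 12 weeks had 0 CPM of Thbs4, against 391 and 170 CPM in the others. Only 20.0% and 11.0% of those others had a Thbs4 UMI, so that these few cells do not settle the question after TAC. Sfrp2 was most like Mdk, a heparin-binding growth factor (r = 0.94), Frzb and Pdgfrl (both r = 0.93). Sfrp1, found in FBs and neural cells, was most like Matn2, a matrilin of the matrix (r = 0.95), Abca8b (r = 0.93) and Itm2a (r = 0.92). For Dkk2 the genes named by this measure were haemoglobin genes (Hba-a2, r = 0.97, Hbb-bs and Hba-a1, both r = 0.92), which with 60 Dkk2 UMIs is no finding.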

How the data were processed

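Ventricular non-CMs were profiled by 3′ scRNA-seq with UMIs in 3 libraries, 1 per phase. Per the labels and the study's methods, the authors aligned reads to mm10 and made gene by cell tables with Cell Ranger 2.0.0. The deposited values are raw UMI counts of 27998 genes in 3900, 2239 and 802 cells at 0, 2 and 12 weeks, and no column of another sample was present.

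Cells with at least 200 genes were kept. A cell went to the class (EC, FB, mural, neural or blood) with the largest marker sum if that sum had at least 3 UMIs from at least 2 markers and was at least 2 times the next, and 318 cells stayed unassigned. FBs were gated by the 4 gene pairs, and ECs by 3 gene sets, with at least 2 UMIs and at least 2 times the next, and mural cells with at least 3 UMIs and the same margin. No doublet caller was run. The margin set aside only cells whose largest marker sum was under 2 times the next, so that kept cells could hold markers of another class. FB marker UMIs were found in 82.4% of neural and 73.2% of mural cells, and EC marker UMIs in 42.7% of FBs. CPM were computed from summed counts with exact Poisson intervals, ratios with exact conditional binomial intervals and shares with Clopper-Pearson intervals, all at 95%. The level at the healthy mix weighted the gate levels of a phase by the UMI share of each gate in healthy FBs, with a log-normal interval. Where a count is 0, the limit given is that of 3 counts. A gene counted as called at 2-fold either way with 1 CPM added and at least 20 UMIs over both groups. PCR duplicates were removed by UMIs, while intervals cover counting error only and not the spread between mice. The intervals of CPM and ratios also treat UMIs as independent. They are therefore too narrow where few cells hold most UMIs. Python 3.11.15, numpy 2.4.6, scipy 1.17.1, pandas 2.3.3 and matplotlib 3.10.9 were used.

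The genes named are the 6 members, the pathway genes with the highest level per role and class, those with the 3 highest and 3 lowest FB ratios per phase, the 3 genes most like each member, and gate or marker genes where their value stands beside a result. The members, gates and gene lists were chosen with earlier results of these data known. Some marker genes used for the class gates are not reported here. Alternatives changed the gates, the cell filters, the weighting of cells, the depth, the added CPM and the UMI minimum, and left out the richest cell of each group. Gene positions are from GENCODE M21 on GRCm38, and start regions from RefSeq.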

Additional observations from a re-analysis of the deposited data

Results flagged for a closer look

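Some members moved in opposite directions in different FB gates, with intervals on opposite sides of 1 in both, and these differences between gates were not tested. All of them set the Comp+Chad gate against another gate, and the share of Chad-positive cells in that gate differed between the libraries. In its cells without a Chad UMI, Dkk3 stood at 1450, 350 and 688 CPM at 0, 2 and 12 weeks, and Frzb at 329 CPM in the healthy library and 115 CPM at 12 weeks, so that both were lower there as in the whole gate. Sfrp1 was at 48.8 and 436 CPM in these cells at 0 and 12 weeks, while Wif1 was at 768 and 964 CPM and thus not lower. For Dkk3 at 12 weeks against healthy, the ratio was 1.67 in Postn+Thbs4 cells, 2.60 in Cd248+Pi16 cells and 1.60 in ungated FBs, but 0.528 in Comp+Chad cells. At 2 weeks Dkk3 was at 1.80 in ungated FBs and 0.245 in Comp+Chad cells. For Frzb at 12 weeks, the ratio was 2.50 in Cd248+Pi16 cells and 1.96 in ungated FBs, but 0.341 in Comp+Chad cells. For Wif1 at 12 weeks, it was 6.08 in Cd248+Pi16 cells, where all 4 UMIs came from 1 cell, and 0.487 in Comp+Chad cells. Sfrp1 at 12 weeks showed the opposite arrangement, with 13.5 in Comp+Chad cells, from 4 UMIs in the healthy library and 19 at 12 weeks, and 0.650 in ungated FBs.

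The 318 cells that met no class gate also held members above the level of blood cells. Sfrp1 stood at 50.2 CPM there, from 40 UMIs in 18 cells, of which 14 had at least 3 FB marker UMIs and 10 at least 3 neural marker UMIs. Sfrp2 stood at 13.8 CPM from 11 UMIs in 4 cells, Dkk3 at 13.8 CPM from 11 UMIs in 9 cells and Dkk2 at 5.02 CPM from 4 UMIs in 2 cells, in both of which EC markers led.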

How the results depend on the processing

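Of 475 values recomputed under an alternative, 434 stayed within the 95% interval or the count range of the reported value, 40 moved out of it and 1, whose reported interval lay clear of 1, changed direction, namely Sfrp2 in FBs at the healthy mix at 12 weeks (1.15 with each cell weighted equally). Equal weighting also gave FB ratios to healthy of 2.96 for Frzb and 0.496 for Wif1 at 2 weeks and 2.00 for Sfrp2 at 12 weeks, and ratios of the healthy Comp+Chad gate to other FBs of 9.74 for Dkk3 and 23.3 for Wif1. Without the richest cell of each group, the 2-week ratio of Wif1 was 0.430. In the healthy Comp+Chad gate, Wif1 stood at a ratio of 15.0 with no margin between gates, 36.8 in cells with a Chad UMI and 7.90 in those without, and Sfrp2 at 10.4 and 4.04. The neural to FB ratio of Sfrp1 over the 3 libraries together was 5.46, and 6.95 with neural cells of at most 1 FB marker UMI. The splits by Chad and by FB markers were chosen after seeing the data. With gates set on thinned counts, Dkk3 at the healthy mix was at 1.73 at 2 weeks and Wif1 at 1.12 at 12 weeks, where the reported 0.879 had an interval that included 1. Pathway genes called higher in FBs numbered 3 at 2 weeks and 1 at 12 weeks with 10 CPM added, and 4 and 3 with at least 50 UMIs, and those called lower numbered 0 in each case. With 1 CPM added in place of 10, 1 of the 3 genes most like Sfrp1, Sfrp2 and Dkk2 each was shared with those named. The cause of these shifts was not tested, apart from the number of genes tested, which the higher minimum lowers. No paired analysis was possible because each phase has 1 library. Depth limits the 2-week FBs (100 cells, 270151 UMIs), the neural cells at 2 and 12 weeks (37861 and 21767 UMIs), the Comp+Chad gate at 2 weeks (11 cells) and all Dkk2 values (60 UMIs).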

Other observations

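Other secreted Wnt antagonists and a ligand are named here after their values were seen. Sfrp4 had 20 UMIs, all of them in FBs (3.98 CPM, 2.43 to 6.15) among the 5 classes. Sost, sclerostin, which binds Lrp5 and Lrp6, stood at 8.02 CPM (6.08 to 10.4) in ECs and 14.3 CPM (9.44 to 20.8) in mural cells, and had 2 UMIs in FBs (0.398 CPM). Sostdc1 had 55 UMIs in neural cells and 1 UMI in mural cells, with none in ECs, FBs and blood cells. Wnt6 was likewise highest in neural cells, with 156 CPM (97.9 to 236) against 1.99 CPM in FBs.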
